A study of Homo sapiens with 11 samples.

Results

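The libraries described here are the 3 normoxic libraries of RWPE1 cells, out of 11 in the series. They were chosen by their label alone, Normoxia, which is also the zero-hour point of the time course, and no measured value was used to choose them. RWPE1 cells are human prostate epithelial cells that were immortalized but do not form tumours, and the 3 libraries come from this single line and not from different people. The cells were grown in keratinocyte serum-free medium with 0.05 mg/ml bovine pituitary extract and 5 ng/ml epidermal growth factor, without serum, under 1 set of conditions. The sources do not say whether the replicates were separate cultures, so the spread given below is that between these libraries. Between 28362918 and 32922049 reads were counted per library, and 29404 ± 205 genes (SD, n = 3) had at least 1 count. Only the level of each gene in these cells is described, and no other condition enters any value.

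The prostate gland is lined by an epithelium with an outer basal layer, attached to the basement membrane, and an inner luminal layer that secretes into the duct. Basal cells are known for the keratins KRT5 and KRT14 and the transcription factor TP63, and luminal cells for KRT8 and KRT18 and the secreted kallikrein KLK3, better known as prostate-specific antigen. Keratins form filaments from pairs of a type I and a type II chain, and different epithelia use different pairs. Many other protein families also have several members, and which of them a cell transcribes is part of its identity.

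Levels are given as TPM, the length-scaled share of transcripts in a library, computed here from the deposited counts and the summed exonic length of each gene, so that genes can be compared with each other. A gene is described as expressed where it reached 1 TPM in every library, and as undetected where it had 0 counts in all 3. Of all 19892 protein-coding genes 57.7% were expressed and 15.8% undetected, and the shares of the lists and families below stand beside these. A count of 0 allows up to 3 counts in a library, or 0.0911 to 0.106 CPM (the library's counts scaled to 1000000), and this limit covers counting error only. Because a gene with long, rarely used exons gets a low TPM, the value with the length of 1 representative transcript per gene is given as well for a number of genes. Where it is not given, the level may still depend on the length.

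Several of the most abundant transcripts have close copies elsewhere in the genome, and reads of 75 bases cannot always tell them apart. The stretches below are from GENCODE release 44 on GRCh38, are written 5′ to 3′ on the gene's own strand, and have in capitals the bases that differ between the genes of a group. EEF1A1 (chr6:73489308-73525587, minus strand), the elongation factor that brings aminoacyl-tRNA to the ribosome, and its processed pseudogene EEF1A1P5 (chr9:133019486-133020874, plus strand) differed at 4 of 1389 coding bases. Coding bases 257 to 331 hold 1 of these differences.
EEF1A1: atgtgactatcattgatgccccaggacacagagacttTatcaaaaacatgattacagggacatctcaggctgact
EEF1A1P5: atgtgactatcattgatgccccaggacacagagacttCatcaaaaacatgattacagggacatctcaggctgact

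RPL41 (chr12:56116590-56117967, plus strand), which encodes a very small ribosomal protein, and RPL41P5 (chr12:93083598-93083675, minus strand) differed at 0 of 78 bases, which is the whole coding sequence of RPL41.
RPL41: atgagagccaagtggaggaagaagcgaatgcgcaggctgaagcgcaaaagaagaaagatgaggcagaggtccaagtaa
RPL41P5: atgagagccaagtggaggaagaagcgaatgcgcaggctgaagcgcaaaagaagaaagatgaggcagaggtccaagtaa

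The basal and stress keratins of type I lie beside each other on the minus strand of chromosome 17, KRT14 at chr17:41582279-41586895, KRT16 at chr17:41609778-41615899 and KRT17 at chr17:41619442-41624842. KRT14 and KRT16 shared an identical run of 158 coding bases, and 6.25% of the 75-base windows in the KRT14 coding sequence occurred in that of KRT16. None of the 1345 windows occurred in KRT17, whose longest run in common with KRT14 was 59 bases. Among the type II keratins, 33.7% of the windows of KRT6A occurred in KRT6C and 1.77% of those of KRT5 in KRT6A. Over whole representative transcripts 26.2% of the windows of KRT6A, 34.6% of KRT6B and 42.5% of KRT6C occur in another gene, against 2.77% of KRT5, so the levels of the KRT6 genes are less certain than that of KRT5. In contrast, the beta thymosins TMSB10 (chr2:84905656-84906671, plus strand) and TMSB4X (chrX:12975110-12977227, plus strand), which bind actin monomers, differed at 37 of their 135 coding bases and are easily told apart.
TMSB10: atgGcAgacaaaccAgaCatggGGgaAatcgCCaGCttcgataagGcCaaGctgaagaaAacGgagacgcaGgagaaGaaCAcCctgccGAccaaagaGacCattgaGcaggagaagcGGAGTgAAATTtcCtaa
TMSB4X: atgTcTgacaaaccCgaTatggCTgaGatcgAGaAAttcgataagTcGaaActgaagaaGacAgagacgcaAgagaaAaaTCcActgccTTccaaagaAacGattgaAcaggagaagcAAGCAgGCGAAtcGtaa

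The counts of copies were compared as well. Of 11 groups of genes with identical transcripts and at least 100 counts, 4 had copies within 1% of each other in every library. With these 4 included, 5 had copies within 10%. In the other groups the copies were farther apart, and in 1 group they ran from 0 to 2735 counts. RPL41P5 and another gene with the same 78-base transcript had between 6182 and 7166 counts each and differed by a factor of at most 1.0009. That copy is not RPL41, whose transcript is longer and which had 31545, 30523 and 33139 counts in replicates 1 to 3. How reads with several matches were counted is not given in the sources used here, and its part in these equal and unequal counts was not tested. Pseudogenes took 9.48% ± 0.119 of the counts and 32.2% ± 0.394 of the TPM (SD, n = 3). EEF1A1P5 alone had 241175, 220195 and 242552 counts in replicates 1 to 3, beside 466456, 432296 and 473237 for EEF1A1. MTCO1P12, a nuclear copy of the mitochondrial gene MT-CO1 on chromosome 1, had 265488, 245427 and 270836.

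Basal epithelial genes were abundant. All 17 genes of the basal list were expressed, 11 of them at 100 TPM or more, with a median of 148.6 TPM against 12.5 TPM for all expressed protein-coding genes. The list summed to between 11839 and 14330 TPM per library. KRT5 (ENSG00000186081, chr12:52514575-52520530) stood at 5454, 4592 and 6181 TPM in replicates 1 to 3, and was the nuclear protein-coding gene of the highest mean level. KRT17 had 4064, 4336 and 4729 TPM, and KRT14, the usual filament partner of KRT5, had 1736, 1358 and 1823 TPM. In KRT5 and KRT14 replicate 2 was the lowest library.

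Genes for the anchorage of basal cells spanned a wide range. LAMB3, a chain of laminin-332 in the basement membrane, had a mean of 238 ± 22.01 TPM (SD, n = 3). ITGA6 and ITGB4, the subunits of the integrin that binds this laminin in hemidesmosomes, had 203 ± 14.99 and 163 ± 13.98 TPM, and the hemidesmosomal collagen COL17A1 had 161 ± 9.43 TPM. LAMA3, the alpha chain of the same laminin, had 11.3 ± 0.479 TPM. TP63 (chr3:189631389-189897276), which maintains basal cells, was at 107, 91.1 and 99.95 TPM, and TRIM29, another marker of basal cells, was at 149 ± 11.6 TPM (360 with the length of 1 transcript). The lowest member was the nerve growth factor receptor NGFR, at 2.02 ± 0.566 TPM.

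Luminal genes were low or undetected apart from the luminal keratins. Of the 16 listed, 6 were expressed and the median was 0.164 TPM. KRT18 had 109, 106 and 92.4 TPM and KRT8 had 66.7, 66.7 and 58.2 TPM. Their means were 160 and 177 TPM with the length of 1 transcript. KLK3 had 0 counts in all libraries, and KLK2 had 1, 0 and 0. ACP3, SLC45A3 and DPP4 were expressed and lay between 1.17 and 2.14 TPM. At these depths KLK2 and KLK3 were at or under the limit that a count of 0 allows, so no transcript of them was detectable above it.

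The ratio of KRT5 to KRT8 was 6.40 ± 0.315 on the log2 scale (SD, n = 3), or 84.2-fold, and that of KRT14 to KRT18 was 3.99 ± 0.310. Both were above 0 in 3 of 3 libraries. Of the windows in KRT8, 18.8% occur in another gene's transcript, against 2.77% in KRT5. For KRT18 26.5% of the representative transcript overlaps exons on the other strand. The part of such shared bases in these ratios was not tested. With the length of 1 transcript the log2 ratio of KRT5 to KRT8 was 5.33, since the annotated exons of KRT8 add up to 6881 bases against 1784 in its representative transcript. The order of the luminal pair itself depended on the length: the log2 ratio of KRT8 to KRT18 was -0.68 ± 0.025 over all exons and 0.15 with 1 transcript. The exact two-sided test over 3 paired values cannot go below p = 0.25, so no test of these ratios was made.

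**Figure D1:**
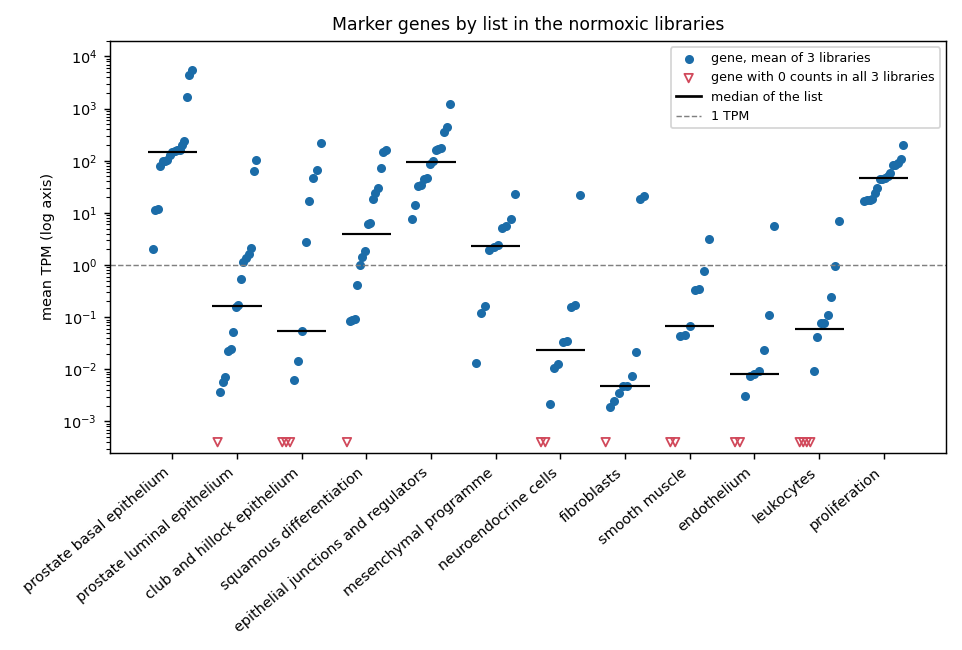
Mean TPM (log axis) of each gene in 12 marker lists, over the 3 normoxic libraries. Triangles at the bottom are genes with 0 counts in all libraries, black bars are list medians and the dashed line is 1 TPM. The medians of the basal list (148.6), the junction list (92.7) and the proliferation list (45.9) lie highest, and those of the fibroblast (0.00478) and endothelial (0.00809) lists lowest.

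Of the club and hillock list, which marks epithelial cells of the urethra and proximal ducts, 5 of 11 genes were expressed. LCN2, a secreted iron-trafficking protein, had 202, 242 and 207 TPM, and the hillock keratins KRT4 and KRT13 had 67.2 ± 11.3 and 46.0 ± 9.42 TPM. PSCA, a cell surface antigen, had 17.0 ± 3.89 TPM. The defining secretory genes of club cells, SCGB1A1, SCGB3A1 and LTF, had 0 counts in all libraries.

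Squamous differentiation is the programme by which stratified epithelia build a cornified layer. Of its 16 listed genes 9 were expressed, a share near the 57.7% of all protein-coding genes. SPRR1B, a cornified envelope precursor, had 137, 150 and 187 TPM. KRT10, a keratin of suprabasal cells, had 119, 121 and 194 TPM, and its partner KRT1 had 17.2, 19.9 and 34.7 TPM. For both, replicate 3 was the highest and stood apart from the other libraries. TGM1 and IVL, a crosslinking enzyme of the envelope and one of its substrates, had 71.5 ± 6.24 and 30.6 ± 3.79 TPM, and SPRR1A had 18.8 ± 2.94 TPM. SBSN, SPRR2A and CNFN were also expressed, at 6.25 ± 0.921, 6.09 ± 1.42 and 1.84 ± 0.260 TPM. The late genes FLG and LORICRIN stayed at 0.416 ± 0.0413 and 0.0835 ± 0.0728 TPM. TGM3 had 0 counts, but 96.6% of its representative transcript lies in exons of another gene on the same strand, also at 0 counts.

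All 14 genes for epithelial junctions and their regulators were expressed, 6 of them at 100 TPM or more. PKP1, a desmosomal plaque protein, led with 1327, 978 and 1386 TPM, lowest in replicate 2. JUP and DSP, which link desmosomal cadherins to keratin filaments, had 447 ± 25.4 and 349 ± 28.9 TPM. The epithelial splicing regulator ESRP1 had 164 ± 2.17 TPM. In the mesenchymal list 7 of 10 genes passed 1 TPM, against 57.7% of all protein-coding genes. SNAI2 was the only one above 10 TPM, at 22.5 ± 0.986. VIM, the intermediate filament of mesenchymal cells, was at 7.53 ± 0.171 TPM (12.98 with the length of 1 transcript), and 45.6% of its representative transcript overlaps exons on the other strand. The log2 ratio of VIM to the epithelial cadherin CDH1 was -4.44 ± 0.107. CDH2, ZEB1 and ZEB2 lay between 0.0130 and 0.161 TPM.

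Markers of other cell types were near 0 as lists, each with 1 or 2 exceptions. Fibroblast genes summed to between 37.6 and 40.6 TPM per library, nearly all of it from FBLN1 (20.9 ± 1.45 TPM) and COL1A1 (18.1 ± 2.58 TPM), while LUM had 0 counts. COL1A2, whose chain joins that of COL1A1 in type I collagen, had 1, 1 and 0 counts beside 2038, 2271 and 2109 counts of COL1A1. Leukocyte genes summed to 6.24 to 10.7 TPM, led by CSF1R (4.89, 9.11 and 6.65 TPM), with CD2, CD3D, MS4A1 and LYZ at 0 counts and PTPRC, the common leukocyte antigen, at 0.0421 ± 0.0307 TPM. Endothelial genes summed to 5.13 to 6.35 TPM, with EGFL7 at 5.71 ± 0.603 TPM and TEK and CDH5 at 0 counts. Smooth muscle genes summed to 3.91 to 6.31 TPM, with TAGLN, of whose transcript 66.0% lies in exons of another gene on the same strand, at 3.196 ± 1.32 TPM, and DES and MYOCD at 0 counts. Of the neuroendocrine list only ENO2 passed 1 TPM, at 21.6 ± 3.62, and INSM1 had 0 counts.

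Proliferation genes were all expressed, 16 of 16, each above 10 TPM, and summed to between 791 and 1028 TPM. PCNA, the sliding clamp of DNA replication, had 218, 166 and 225 TPM. MKI67 had 57.5, 35.5 and 48.5 TPM, and TOP2A, which untangles DNA in mitosis, had 100.2, 68.1 and 80.7 TPM. Replicate 2 was the lowest library in each of these 3 genes, and in 16 of the 16 listed. In other lists it was the lowest in 10 of 17 basal, 8 of 14 junction and 4 of 16 luminal genes. The share over all expressed genes was not counted, so these counts are not read as a trait of any list. Replicate 2 was the farthest library from the median in 5630 of all 11469 expressed genes.

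Of 54 keratin genes 18 were expressed, 8 of 28 in type I and 10 of 26 in type II. KRT5 made up 30.6% ± 0.793 of all keratin TPM, KRT17 24.95% ± 2.67, KRT16 10.4% ± 1.66, KRT14 9.26% ± 0.542 and KRT6A 8.15% ± 0.0420. The basal keratins KRT5, KRT14, KRT15 and KRT17 together made up 65.6% ± 1.43 (SD, n = 3), or 70.1% with the length of 1 transcript. KRT16 and KRT6A, known for wounded and fast-growing epithelia, had 1959, 1314 and 2296 TPM and 1435, 1257 and 1629 TPM, again lowest in replicate 2. The order from KRT5 to KRT17 held in 3 of 3 libraries, with a log2 ratio of 0.30 ± 0.187. KRT16 and KRT14 did not differ beyond their spread, with a log2 ratio of 0.15 ± 0.191 that was above 0 in 2 of 3 libraries.

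Below these came the simple epithelial keratins KRT19 (625 ± 75.9 TPM) and KRT7 (595 ± 47.1 TPM), then KRT6B (549 TPM) and KRT6C (511 TPM). Both orders turned with the length of 1 transcript, which gave KRT7 1050 and KRT19 754 TPM, and KRT6C 463 and KRT6B 394 TPM. KRT15, a keratin of basal stem cells, had 151 ± 20.98 TPM, or 376 with the length of 1 transcript. KRT20, a marker of intestine and umbrella cells, had a single count in 1 library. The hair keratins KRT31, KRT33A, KRT33B and KRT35 of type I and KRT82 and KRT84 of type II were among the 12 keratins with 0 counts.

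Transcripts encoded by mitochondrial DNA were the most abundant of all, with 10.3% ± 0.0793 of the counts and 25.1% ± 0.250 of the TPM. The 10 protein-coding genes of the highest mean TPM were all mitochondrial and held 33.4% ± 0.268 of protein-coding TPM. With the length of 1 transcript KRT5 ranked 9 and EEF1A1 ranked 10, ahead of MT-ND1 and MT-CYB at ranks 11 and 13. MT-CO2, a subunit of cytochrome c oxidase, led with 45507, 42975 and 44866 TPM, followed by MT-CO1 with 31948, 33688 and 32161 TPM. MT-ATP6, MT-CO3 and MT-ND4, of the ATP synthase, of cytochrome c oxidase and of complex I, had 24894 to 25640 TPM on average. MT-ND3 was the steadiest of these, with 7060, 7079 and 7068 TPM. By counts rather than TPM the order was MT-CO1 (2.14% of all counts), EEF1A1 (1.47%), MT-ND4 (1.46%) and the mitochondrial ribosomal RNA MT-RNR2 (1.43%), and KRT5 came sixth with 0.950%. Of the windows in MT-CO1, 36.6% occur in another gene's transcript.

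Without the mitochondrial genes, the 10 most abundant nuclear genes held 8.24% ± 0.256 of nuclear protein-coding TPM, the 100 most abundant 28.5% and the 1000 most abundant 58.2%. The top 25 were made up of keratins, genes of translation and a few others. Ribosomal protein genes among them were RPS12 (4392, 4492 and 4456 TPM), RPS2, RPL7A, RPS18, RPL41, RPS21, RPL8, RPL12, RPS27, RPL13A, RPL4, RPS6 and RPL35, the last at 1238 ± 38.6 TPM (3017 with the length of 1 transcript). The elongation factors were EEF1A1 (3434 ± 134 TPM) and EEF2 (3153 ± 91.9 TPM), which moves the ribosome along the mRNA. Others were the small heat shock protein HSPB1 (1946, 1597 and 2016 TPM), TMSB10 (1754 ± 39.8 TPM), the ferritin light chain FTL (1658 ± 15.7 TPM) and PSAP, the precursor of lysosomal saposins (1368, 1692 and 1497 TPM). With the length of 1 transcript KRT5 stayed first among these 25 with 7166 TPM, EEF1A1 rose to 7057 TPM, and RPS18 went from 2368 to 5674 TPM. Windows that occur in another gene's transcript made up 65.1% in RPS27, 56.6% in RPS2, 49.8% in RPL7A and 33.7% in EEF1A1. In EEF2, RPS21 and RPL8 they made up 0%. Levels and ranks of genes with many such windows are uncertain.

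**Figure D2:**
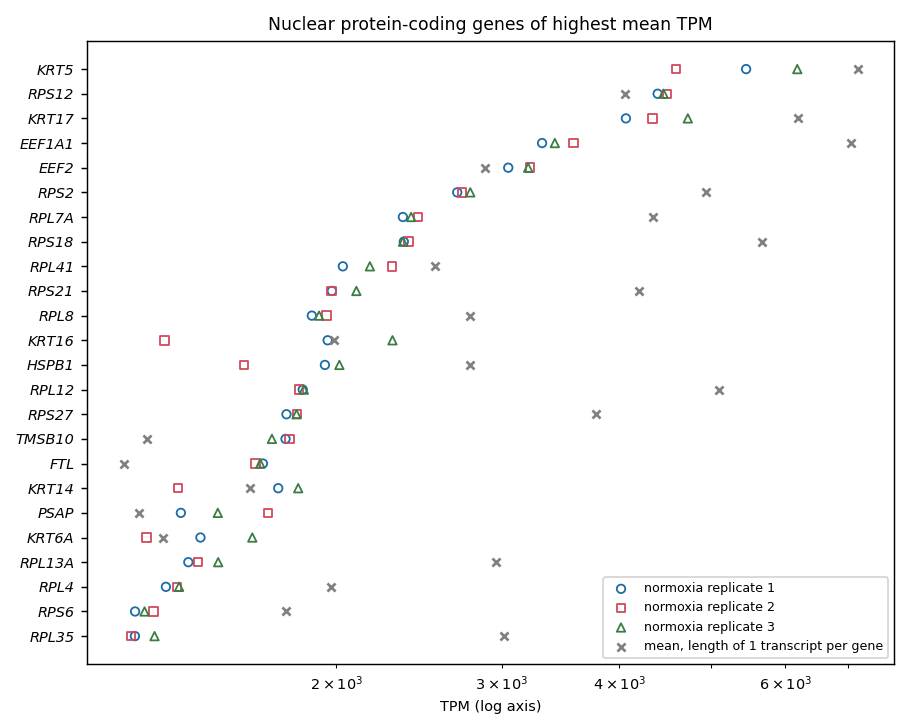
TPM (log axis) of 24 of the 25 nuclear protein-coding genes of highest mean TPM, with 1 symbol per normoxic library and crosses for the mean with the length of 1 transcript per gene. The libraries lie close together for ribosomal proteins such as RPS12 (4392 to 4492), while the keratins spread more, with KRT16 between 1314 in replicate 2 and 2296 in replicate 3.

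Among long noncoding RNAs the 4 highest over all exons were genes of 923 bases on chromosome 21. For 3 of them, with identical sequence, the counts in replicate 2 were 28755 each, and their levels cannot be added. Of the windows of these 3 genes 100% occur in another gene's transcript, and 82.45% of those of the other gene. Their levels therefore do not show which copy was transcribed, and their rank is uncertain. Next was MIR205HG (chr1:209428817-209432848), the host transcript of a microRNA of basal and squamous epithelia, with 564, 719 and 573 TPM, highest in replicate 2. With the length of 1 transcript it had 1939 TPM and passed the lowest of the 4, at 1846 TPM. On that scale SNHG29, a snoRNA host gene with 148 TPM over all exons, was the highest of those listed, at 2143 TPM.

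The choice among paralogs was examined in 43 families. In 13 of them the leading member held over 80% of the family's TPM, in 18 between 50% and 80%, and in 12 at most 50%. The leader was the same with the length of 1 transcript in 34 families. The 13 families with a dominant member were also 13 when the lowest share over the libraries was used, and 11 with the length of 1 transcript. Some of the 43 families are loose lists. Those of cytochrome c oxidase and laminin pool different subunits or chains of the same complex, and the CDK inhibitors pool separate gene families. In such lists a share is no choice between alternatives.

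In most families of glucose metabolism a single member led. SLC2A1, the glucose transporter GLUT1, had 206, 220 and 238 TPM and 89.5% of the TPM of its family, followed by SLC2A8 with 3.62%. The log2 ratio of SLC2A1 to SLC2A3, which encodes GLUT3, was 7.72 ± 0.101 in these cells. The paper proposes that some reads of SLC2A3 were assigned to its close copy SLC2A14, of which its RT-PCR found no message. Reads lost in this way would make the ratio too high, and their share was not tested here. HK1 held 63.0% of hexokinase TPM and HK2 36.7%, and PFKP led the phosphofructokinases with 40.9% over PFKL with 31.8%. ENO1 held 93.0% over ENO2 with 5.58%, and PKM had nearly all of the pyruvate kinase TPM at 335 ± 27.96, or 893 with the length of 1 transcript. LDHA held 91.2% of lactate dehydrogenase TPM over LDHB with 8.29%, and for LDHB 76.5% of the representative transcript lies in exons of another gene on the same strand.

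Aldolases were led by ALDOC, with 66.8% over ALDOA with 33.2% and a log2 ratio of 1.009 ± 0.036. Of the representative transcript of ALDOA 89.8% lies in exons of another gene on the same strand, and that gene had 50, 38 and 61 counts. A further length, chosen after the data were seen, took only the exonic bases that belong to no other gene. With all counts of each gene kept and divided by that length, ALDOC had 35.5 and ALDOA 34.2 TPM. On that measure the pair was nearly level, and the part of the shared exons in the order was not tested. The nucleotide translocators were led by SLC25A5 (58.5%) over SLC25A6 (40.2%). The cytochrome c oxidase list holds different subunits with their isoforms. In it COX8A had 35.96% and COX6B1 22.8%, and COX4I1 was the highest (35.1%) with the length of 1 transcript. For COX8A 35.4% of the representative transcript lies in exons of another gene on the same strand.

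The cytoskeleton was shared more evenly. ACTB held 55.7% of actin TPM and ACTG1 44.2%, with a log2 ratio of 0.35 ± 0.239, highest in replicate 1 (0.58) and lowest in replicate 2 (0.10). TUBA4A led the alpha tubulins with 31.8% over TUBA1C with 28.3%, but 30.6% of the TUBA4A transcript overlaps exons on the other strand, as does 72.6% of TUBA1B. Beta tubulins were led by TUBB4B (45.6%) over TUBB (38.8%), and in the other order with the length of 1 transcript. TMSB10 held 91.4% of beta thymosin TPM over TMSB4X with 8.62%, and still 79.5% with the length of 1 transcript. S100 proteins, small calcium binders, had 3 near-equal leaders, S100A14 with 22.8%, S100A6 with 22.4% and S100A11 with 22.3%. The tie did not hold with the length of 1 transcript, where S100A6 led with 32.9% over S100A14 with 18.2%. ANXA8 led the annexins with 30.6% over ANXA2 with 15.7%, while with the length of 1 transcript ANXA2 led with 38.2%. Of the windows in ANXA8, 74.0% occur in another gene's transcript.

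Among the adhesion molecules ITGA6 held 57.1% of integrin alpha TPM over ITGA3 with 21.1%. ITGB4 held 63.0% of integrin beta TPM over ITGB1 with 24.5%, and 39.0% against 51.5% with the length of 1 transcript. LAMB3 led the laminins with 38.1% over LAMA5 with 33.7%. CDH3, or P-cadherin, and CDH1, or E-cadherin, held 51.0% and 48.6% of classical cadherin TPM, with a log2 ratio of 0.07 ± 0.111 that was above 0 in 2 of 3 libraries, so their order was within the spread. Desmosomal cadherins were led by DSC3 (34.4%) over DSG3 (32.9%), or by DSG2 (32.9%) with the length of 1 transcript. PKP1 held 90.3% of plakophilin TPM over PKP3 with 7.24%. CLDN7 (50.2%) over CLDN1 (22.98%) led the claudins, and GJB2 (45.03%) the connexins.

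In the signalling families EGFR held 69.4% over ERBB2 with 21.3%, and its ligand AREG, or amphiregulin, held 69.3% over TGFA with 16.5%. FGFR3 held 83.5% over FGFR2 with 11.8%, and 62.3% against 31.7% with the length of 1 transcript. NOTCH3 held 59.3% over NOTCH1 with 33.4%. TGFB1 held 98.9% over TGFB3 with 0.650%. NRAS (44.4%) and HRAS (43.2%) were nearly level, and HRAS led with 59.8% with the length of 1 transcript.

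Among regulators of the cell cycle MYC held 91.1% over MYCL with 8.64%, and CDKN1A, the p21 inhibitor of cyclin-dependent kinases, held 72.7% over CDKN2B with 9.19%, at 452 ± 23.3 TPM. CCND2 (42.1%) led the D cyclins over CCND1 (38.4%), and CCND3 (36.8%) with the length of 1 transcript. RB1 held 51.4% of its family over RBL1 with 24.7%. GATA3 (56.6%) over GATA2 (24.8%) and FOXA1 (95.9%) over FOXA2 (3.82%) led their families at low levels, 9.58 ± 0.461 and 4.63 ± 0.165 TPM. The last families were led by PRDX5 (59.3%) over PRDX6 (12.2%) for peroxiredoxins, HSP90AB1 (79.8%) over HSP90AA1 (20.2%) for cytosolic HSP90, SERPINB5, or maspin (62.4%), over SERPINB13 (12.7%) for the clade B serpins, and EEF1A1 (99.8%) over EEF1A2 (0.232%).

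**Figure D3:**
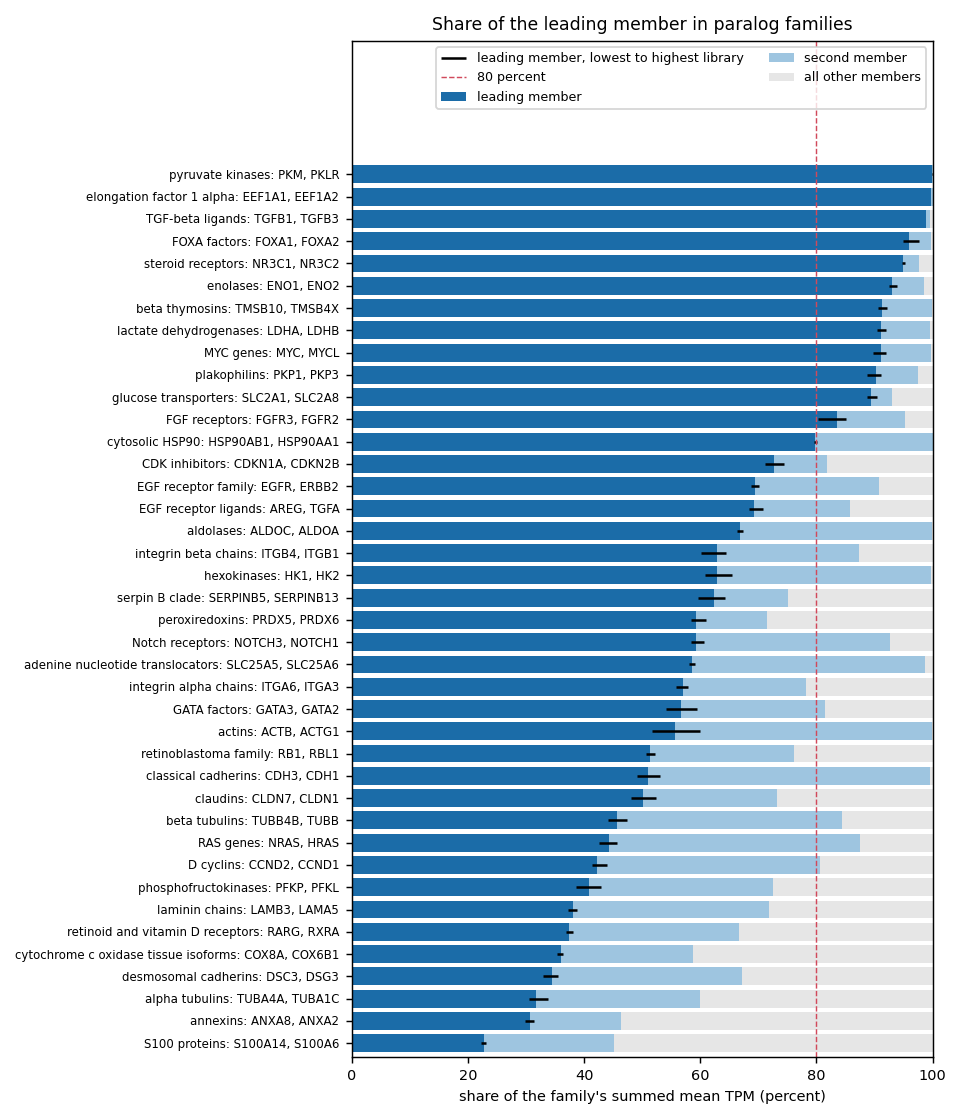
Share in percent of each family's summed mean TPM held by the leading member (dark), the second member (light) and all others (grey) in 40 of the 43 paralog families, with the leading and the second member named. Black lines run from the lowest to the highest library, and 12 of the families shown pass the dashed line at 80 percent.

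Receptors for steroid hormones followed a narrow choice. NR3C1, the glucocorticoid receptor, held 94.9% of the TPM of its group at 40.8 ± 2.59 TPM, followed by NR3C2 with 2.77%, and the progesterone receptor PGR had 0 counts. ESR1 stood at 0.894 ± 0.133 TPM. Over all nuclear receptors 22 of 46 were expressed, led by the retinoic acid receptor RARG (76.6, 71.2 and 82.4 TPM), the clock repressor NR1D1 (85.7, 55.7 and 81.0 TPM) and ESRRA (66.7 ± 2.26 TPM). NR1D1 was lowest in replicate 2. With the length of 1 transcript RARG had 96.8 TPM, followed by RXRA with 94.4, ESRRA with 65.3 and NR1D1 with 53.2 TPM. RARG (37.3%) and RXRA (29.3%) led the retinoid and vitamin D receptors.

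HOX genes, which record the position of a tissue along the body axis, were expressed in 23 of 39 cases. This share (59.0%) is near that of all protein-coding genes (57.7%). HOXD10 was the highest with 45.3, 44.6 and 45.4 TPM, then HOXD9 (21.004 ± 1.54 TPM) and HOXA9 (17.4 ± 0.610 TPM). HOXA9 (18.3 TPM) stood above HOXD9 (15.07 TPM) with the length of 1 transcript. By cluster 10 of 11 HOXA genes, 6 of 9 HOXC genes and 6 of 9 HOXD genes were expressed, against 1 of 10 HOXB genes, HOXB7 at 6.82 TPM. HOXB13, a homeobox factor known from the prostate, was at 0.916, 0.904 and 0.406 TPM. HOXB1, HOXB2 and HOXB8 had 0 counts.

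Kallikreins are secreted proteases, most of them encoded in a cluster on chromosome 19, and 6 of 16 genes of this name were expressed. The 16 include KLKB1, the plasma kallikrein on chromosome 4, which had 0 counts. KLK5 led with 34.6, 33.2 and 41.4 TPM, followed by KLK10 (11.1 ± 0.596 TPM) and KLK8, the kallikreins of stratified epithelium, whereas KLK3 and KLK15 had 0 counts. All 6 class I HLA genes were expressed, led by HLA-C with 344, 360 and 329 TPM. Of 13 class II genes only HLA-DMA passed 1 TPM, at 1.38 TPM.

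The protein-coding genes divided into 11469 expressed ones (57.7% of 19892), 5282 with counts below the threshold in at least 1 library, and 3141 (15.8%) with 0 counts in all libraries. By mean level 55 genes reached 1000 TPM, 522 lay between 100 and 1000, and 5941 between 10 and 100. With at most 3 counts over all libraries in place of 0, 4626 genes were undetected.

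In several families of specialised tissues most members were undetected. Of 400 olfactory receptor genes 317 (79.3%) had 0 counts and 4 were expressed, the highest OR2A4 at 5.48 ± 0.388 TPM, of whose windows 91.9% occur in another gene's transcript. Among 94 keratin-associated proteins of hair 82 (87.2%) had 0 counts. The same held for 22 of 26 MAGE genes, 33 of 40 beta defensins and 12 of 17 type I interferons, of which IFNE, the interferon of epithelia, was the only one expressed (3.34, 5.70 and 3.40 TPM). None of the 10 globins or the 19 UDP-glucuronosyltransferases reached 1 TPM in every library. Cytochromes P450 were expressed in 14 of 56 cases, led by CYP1A1 at 22.8 ± 0.375 TPM.

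**Figure D4:**
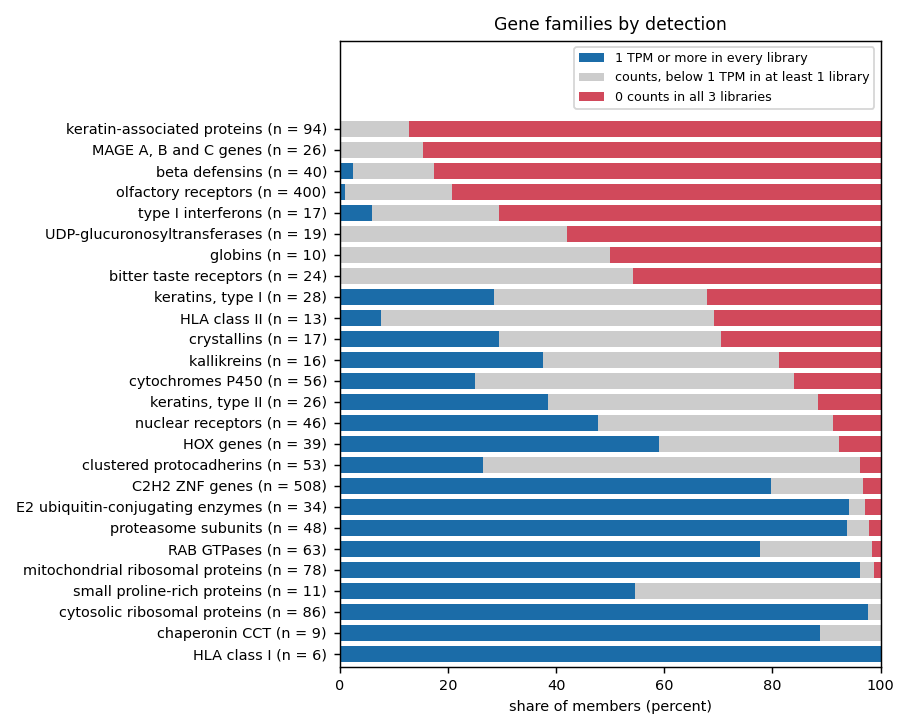
Share in percent of the members of 26 gene families that were expressed at 1 TPM or more in every library (blue), had counts but stayed below 1 TPM in at least 1 library (grey), or had 0 counts in all 3 libraries (red). Keratin-associated proteins (87.2%) and MAGE genes (84.6%) had the largest red shares, while 84 of 86 cytosolic ribosomal proteins and all 6 class I HLA genes were expressed.

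The opposite pattern was found in the machinery that every cell uses, where 84 of 86 cytosolic ribosomal proteins, 45 of 48 proteasome subunits, 75 of 78 mitochondrial ribosomal proteins and 32 of 34 E2 ubiquitin-conjugating enzymes were expressed. The exceptions were of different kinds. RPL10L, RPL3L and PSMB11 are tissue-restricted paralogs of core subunits, and they had at most 6 counts in any library. UBE2L5 and UBE2U had 0.225 TPM and 0 counts. In contrast, PSMA2, a core proteasome subunit, had 98, 57 and 87 counts, and 100% of its representative transcript lies in exons of another gene on the same strand. The same was true of 90.9% of MRPS24 (15, 5 and 9 counts), 73.4% of MRPL46 (82, 85 and 78 counts) and 99.2% of MRPL53 (0 counts). PSMA8 had 0 counts.

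Detection was also set beside the overlap of genes. Of 10497 protein-coding genes whose exons overlap no other gene, 19.8% had 0 counts and 52.8% were expressed. Where 90% or more of the exonic bases lay in another gene on the same strand, 80.3% of 487 genes had 0 counts and 2.05% were expressed. Where at least 50% overlapped a gene on the other strand only, 19.7% of 178 genes had 0 counts and 46.6% were expressed. The part of the counting in these differences was not tested, and the strand setting is not given in the sources used here.

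The libraries agreed closely. Over the 11469 expressed genes the log2 TPM of replicates 1 and 3 differed by a median of 0.066 and by over 2-fold in 1 gene. Replicate 2 lay farther off, with a median difference of 0.11 and 19 genes over 2-fold from replicate 1, and 0.099 and 8 genes from replicate 3. The biological coefficient of variation, the spread between replicates beyond counting error, was 6.54% over all 3 libraries and 3.53% without replicate 2. Over the 6518 protein-coding genes of at least 10 TPM on average, the SD of log2 TPM had a median of 0.065 and a 95th percentile of 0.19.

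The 10 genes with the largest SD differed mostly in replicate 2. MYL9, a myosin light chain, had 23.5, 49.1 and 21.8 TPM. HSPA5, or BiP, the main chaperone of the endoplasmic reticulum, had 845, 1751 and 910 TPM, and SDF2L1, another protein of that compartment, had 24.7, 47.6 and 26.4 TPM. IGFL1 had 21.4, 40.1 and 19.6 TPM. In each of these 4 genes replicate 2 lay above the other libraries, which were close to each other.

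The same held for the matrix protein TNC (9.22, 16.9 and 9.07 TPM) and TMEM50B (20.3, 36.2 and 20.9 TPM). GPNMB was also highest in replicate 2, with 220.1, 417 and 275 TPM, but replicates 1 and 3 were farther apart. CYP1B1 went the other way, with 12.4, 7.02 and 12.1 TPM. KRT1, given above, was the exception among the 10, with replicate 3 apart. Of the 100 genes with the largest SD replicate 2 was the farthest library from the median in 82, higher in 51 and lower in 31. It was the farthest in 5630 of all 11469 expressed genes, against 3125 for replicate 1 and 2714 for replicate 3. It was also the library with the fewest counts.

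**Figure D5:**
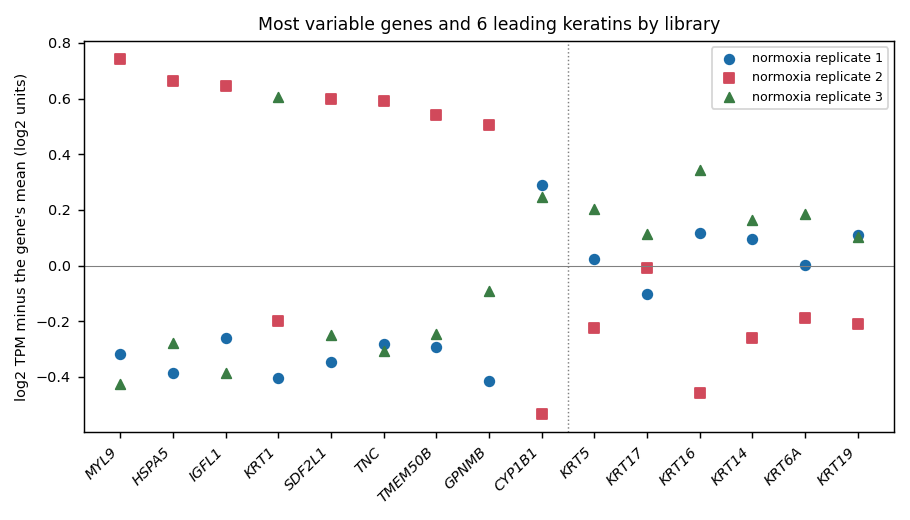
Log2 TPM of each normoxic library minus the gene's mean over the 3 libraries, for 9 of the 10 genes with the largest SD (left of the dotted line) and the 6 most abundant keratins (right). Replicate 2 (squares) is highest for 7 of these 9 genes, and lowest for 5 of the 6 keratins shown at right, KRT17 being the exception.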

How the data were processed

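RNA longer than 200 nucleotides from RWPE1 cells was made into TruSeq stranded libraries and read as 75-cycle single ends. The authors trimmed the reads with Trimmomatic, kept those of at least 36 bases, aligned them with STAR to GRCh38 (Ensembl release 99) and deposited whole-number featureCounts counts for 60676 genes, neither filtered nor normalized. The settings for strand and for reads with several matches are not given in the sources used here. The 3 normoxic columns were assigned to samples through the time and replicate in their names, and every column of the table had a sample.

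TPM was computed from these counts and the union of exons per gene in GENCODE release 44, found for 60357 genes, and scaled to 1000000 per library. The rest held 0.209% of the counts. Every mean has its SD over 3 libraries. With 1 group, no test between groups was made. The biological coefficient of variation came from the common dispersion of edgeR 4.0.16 with TMM on 17974 genes kept by filterByExpr (minimum count 10, minimum total 15). On simulated counts with a known spread the procedure recovered it. The simulation gave all genes and libraries the same spread, which the procedure also assumes. It therefore checks the calculation only, and nothing is concluded from it about these libraries. Windows of 75 bases were compared exactly between representative transcripts.

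The members, gene lists and families were chosen with earlier results of these data known. Named were the 25 most abundant protein-coding genes, the 15 with the most counts, list genes at 10 TPM or more with the leader and zeros of the other lists, family leaders with the next member, unexpressed members of families expressed to 90% or more, the 10 most variable genes and the top 5 long noncoding RNAs. Others that are named, such as KLK2, NGFR, VIM, CDH2, ZEB1, ZEB2, FLG, LORICRIN, COL1A2, PTPRC, SLC2A3, ESR1, KRT20, OR2A4, IFNE, SNHG29, KLKB1 and HOXB13, were added after their values were seen. Some genes and sequences these rules would name are not reported here. Sequences were copied from the GENCODE transcripts.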

Additional observations from a re-analysis of the deposited data

How the results depend on the processing

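Of 56 alternative values for 8 results, 45 stayed within the allowed range and 11 did not. This range was the SD between libraries, or 1.5 times for counts of genes. For the biological coefficient of variation it was the SD of its values with 1 library left out. The cause of the 11 changes was not tested, except that the alternative lengths change TPM by construction. The share of the 10 most abundant protein-coding genes in TPM was 21.1% with the length of 1 transcript, against 33.4%. It was 35.4% with the effective length, 12.2% in CPM without a length and 8.24% without mitochondrial genes. With all counts divided by the exonic bases of no other gene it was 32.3%. The mitochondrial share was 25.1% of TPM against 10.3% of counts. The basal share of keratin TPM was 70.1% with the length of 1 transcript and 70.2% in CPM, against 65.6%. The log2 ratio of KRT5 to KRT8 was 5.33 with the length of 1 transcript and 5.66 in CPM, against 6.40. Leaving out 1 library at a time gave a biological coefficient of variation of 3.53% to 8.03%, lowest without replicate 2. It gave a KRT5 to KRT8 ratio of 6.23 to 6.54 and a basal keratin share of 64.8% to 66.1%. A mean over the libraries cannot move beyond their SD when 1 library is left out. Such values had to count as within the range, and nothing is concluded from that. For the coefficient of variation, these values set the range they were judged by. Expressed protein-coding genes ranged from 8591 at a threshold of 5 TPM to 13085 at 10 counts per library, and undetected ones from 3141 to 4626. Families led at over 80% numbered 11 to 13. The length from exonic bases of no other gene, and a TPM total over protein-coding genes alone (12003 expressed), were chosen after the data were seen. No paired analysis was possible because only 1 group was described and no comparison was tested.

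TPM rests on an annotation later than that of the counts, and on all annotated exons. Counts of genes with copies or shared exons are uncertain, and the depth cannot tell 0 counts from a level under 0.0911 to 0.106 CPM.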

Other observations

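The genes in this paragraph are among the 100 most variable and were picked after their values were seen, so they stand for no pathway. HSP90B1, the endoplasmic reticulum form of HSP90, had 130, 209 and 124 TPM in normoxia replicates 1 to 3, and a mean of 154 TPM, or 521 with the length of 1 transcript. TRAM1, which helps nascent chains enter the endoplasmic reticulum, had 71.8, 123.1 and 75.8 TPM. In both, as in HSPA5 and SDF2L1, replicate 2 was the highest library. The tissue factor gene F3 (59.9, 93.3 and 54.6 TPM) and PMEPA1 (53.3, 94.2 and 58.9 TPM) were also highest in replicate 2. The cell cycle genes CENPF (26.0, 17.1 and 21.5 TPM), HMMR (30.4, 20.3 and 25.1 TPM) and CCNA2 (41.7, 28.1 and 33.9 TPM) were lowest there. ALDH3A1, an aldehyde dehydrogenase, was also lowest in replicate 2 with 20.4, 11.7 and 16.01 TPM.

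The imprinted noncoding RNA H19 had 495, 420 and 522 TPM (mean 479, or 1076 with the length of 1 transcript), and NORAD had 391, 370 and 376 TPM. MALAT1 stood at 270.3 ± 15.7 TPM over all its exons, of which 83.7% overlap annotated exons on the other strand.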
